A study of Mus musculus with 16 samples.

Results

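The genes described here are 8 genes of the vascular lining and its receptors: Flt4, Nrp2, Cxcr4, Ackr3, Ptprb, Sox17, Cd34 and Icam2. They were taken by gene symbol from the 5921 genes of a table of TPM values (a transcript level scaled for transcript length and library total), and all 8 were found. The table comes from RNA-seq of 16 libraries of heart ventricle, dissected from mouse embryos at E11.5. The exon 2-3 line, labelled batch 1, carries Atf4 fl(e2/3), in which loxP sites flank exons 2 and 3 of Atf4, and the exon 2 line, batch 2, carries Atf4 fl(e2), in which they flank exon 2 alone. In each line 4 conditional knockout (cKO) libraries, with the allele deleted by Xmlc2-Cre, were set against 4 control libraries. Xmlc2-Cre acts in heart muscle cells, so the vascular lining was not the cell type targeted by the deletion. The labels do not say if control embryos had a floxed allele or Cre, and the genotype label reads wild type (C57BL/6) on all 16 libraries, cKO included. Line and batch cannot be told apart.

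The ventricle at this stage holds muscle, the endocardium that lines its chambers and the first coronary vessels. Endothelial cells read growth factors, semaphorins and chemokines through surface receptors, and their contacts are set by adhesion proteins and by phosphatases that act on those receptors. Flt4 (VEGFR3) is the receptor for VEGF-C and VEGF-D, Nrp2 is a co-receptor for VEGF-C and for class 3 semaphorins, and Ptprb (VE-PTP) is an endothelial phosphatase that acts on Tie2 and VE-cadherin. Cxcr4 and Ackr3 (CXCR7) both bind the chemokine CXCL12, Cxcr4 as a signalling receptor and Ackr3 mainly as a scavenger that removes it. Sox17 is a transcription factor of arterial and endocardial endothelium, Cd34 is a sialomucin of endothelial and blood progenitor cells, and Icam2 is an adhesion protein of endothelium, leukocytes and platelets.

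Ackr3 rose in the cKO of the exon 2-3 line, and it was the only one of the 8 that passed the test in either line. Of all genes tested, 6.72% passed in the exon 2-3 line and 0.0763% in the exon 2 line. The call on Ackr3 held in 2 of 8 runs with 1 library left out. In the exon 2-3 line the difference was positive for all 8 genes, with a median log2 fold change of 0.22, and in the exon 2 line it was positive for 3 of 8, with a median of -0.03. Among all 2620 genes tested, those with a mean TPM of at least 1, the median was 0.03 in the exon 2-3 line, where 58.5% were positive. It was -0.01 in the exon 2 line, where 43.2% were positive. The 8 genes were chosen with earlier results of these data known, so their shared sign is given as a description. Fold changes throughout are on the log2(TPM + 1) scale, which understates the change of genes with a low level, and a gene passed where limma's Benjamini-Hochberg adjusted p was under 0.05. The control groups of the lines differed more: in the exon 2-3 controls 7 of the 8 genes were lower and Icam2 was higher than in the exon 2 controls, all 8 past the test, as were 52.6% of all genes tested. In bulk tissue fewer cells of a type and less RNA per cell cannot be told apart.

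The tissue carried markers of heart muscle and of endothelium, beside those of blood and mesenchymal cells given further below. The muscle genes Myl4 and Tnnt2 averaged 5096 and 4022 TPM over the 16 libraries, and the endothelial genes Ramp2 and Gpr182 averaged 163 and 66.0 TPM. Cd34, Icam2 and Ackr3 were the 3 most abundant of the 8 in every group, with group means between 44.9 and 80.4 TPM, and Flt4, Ptprb, Nrp2, Cxcr4 and Sox17 followed in that order. Some neighbours in this order did not differ beyond their spread. In the exon 2-3 controls Cd34 (60.5 to 77.6 TPM) overlapped Icam2 (56.8 to 70.6 TPM), and Ptprb (3.46 to 7.72 TPM) overlapped Nrp2 (4.08 to 5.72 TPM). In the cKO of that line Icam2 (59.3 to 75.1 TPM) also overlapped Ackr3 (56.3 to 61.0 TPM). In the exon 2 controls Icam2 (44.0 to 48.6 TPM) lay below Ackr3 (54.6 to 71.0 TPM), the reverse of their order in the exon 2-3 controls.

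**Figure D1:**
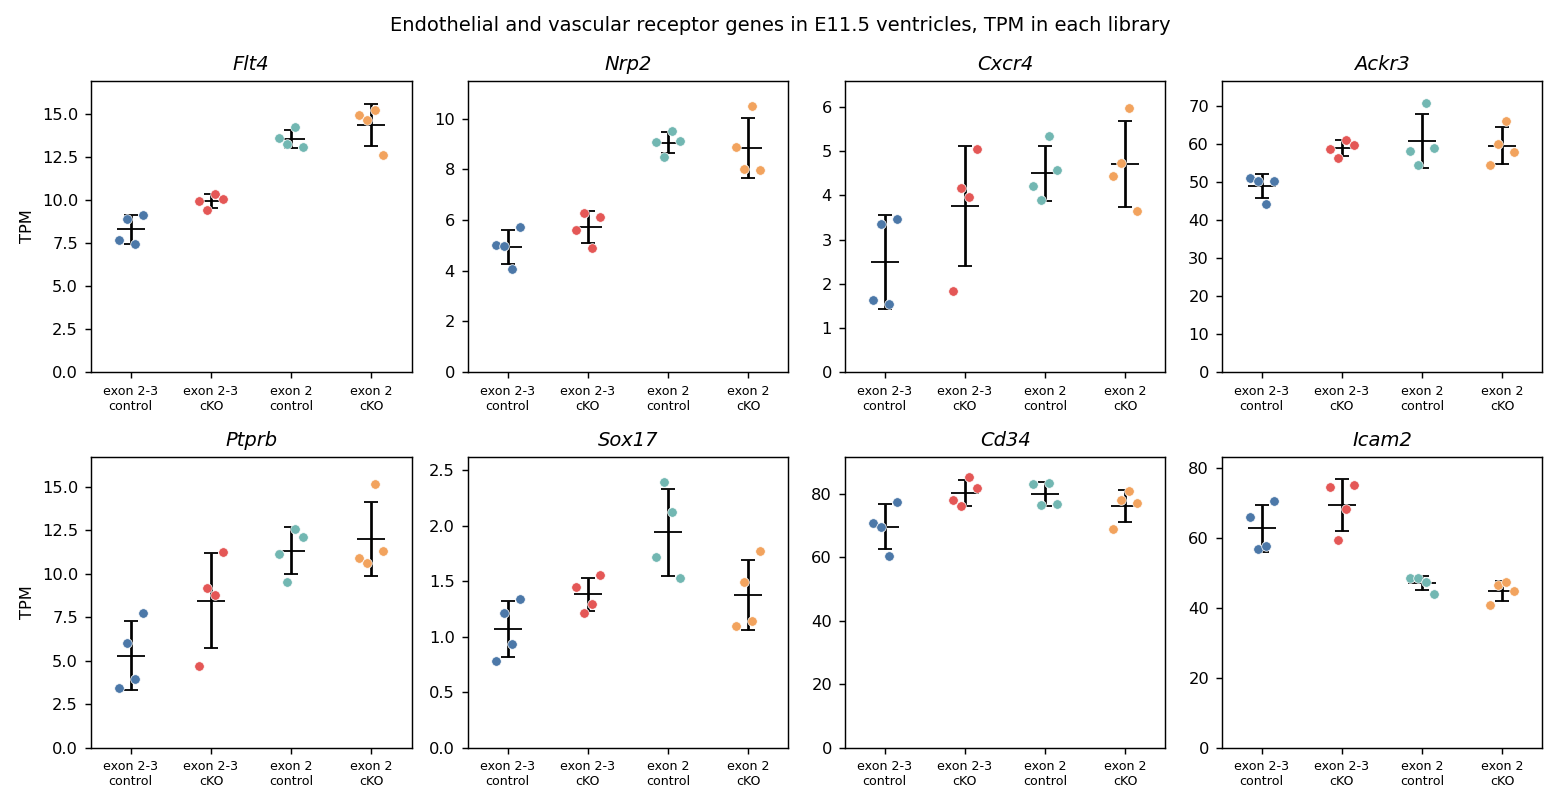
TPM (vertical axes, each from 0) of the 8 genes in each library, by group; points are libraries and bars give the mean and SD of 4 libraries. Ackr3 and Flt4 do not overlap between control and cKO of the exon 2-3 line, and the exon 2-3 controls sit below the exon 2 controls for all genes but Cd34, which overlaps, and Icam2, which lies above.

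The receptors for CXCL12 are on chromosome 1. Ackr3 (ENSMUSG00000044337) spans chr1:90203980-90215724 on the plus strand of GRCm38 and Cxcr4 (ENSMUSG00000045382) spans chr1:128588199-128592299 on the minus strand, each with 2 exons. The windows around their start sites are shown because these receptors share a ligand and differ in how evenly they were expressed. Each runs from 250 bases before to 50 bases after the start in RefSeq (GRCm38.p6), at chr1:90203730-90204029 (plus strand) and chr1:128592250-128592549 (minus strand), and the capitals mark matches to the TATA box letters on either strand.
Ackr3: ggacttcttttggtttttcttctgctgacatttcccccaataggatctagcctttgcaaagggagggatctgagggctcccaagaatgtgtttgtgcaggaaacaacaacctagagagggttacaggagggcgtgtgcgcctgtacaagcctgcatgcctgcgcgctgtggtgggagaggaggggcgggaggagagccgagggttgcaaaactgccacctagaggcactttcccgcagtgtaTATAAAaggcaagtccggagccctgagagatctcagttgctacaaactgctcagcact
Cxcr4: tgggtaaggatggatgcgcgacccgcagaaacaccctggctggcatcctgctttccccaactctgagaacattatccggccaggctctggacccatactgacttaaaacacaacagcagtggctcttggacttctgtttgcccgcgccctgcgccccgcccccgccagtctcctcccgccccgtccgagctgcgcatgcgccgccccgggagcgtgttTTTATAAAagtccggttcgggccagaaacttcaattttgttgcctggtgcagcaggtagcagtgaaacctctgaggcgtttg
Both windows hold TATAAA, found in 13.6% of the 32851 windows of the same length. The match begins at -8 relative to the start in Ackr3. In Cxcr4 it begins at -30, overlapping a match on the opposite strand at -32. The Cxcr4 window has 59.3% G and C with 20 CpG dinucleotides, and the Ackr3 window has 54% with 8.

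In the exon 2-3 line Ackr3 was at 51.1, 50.4, 44.3 and 50.2 TPM in control replicates 1 to 4 and at 58.7, 56.3, 61.0 and 59.9 TPM in cKO replicates 1 to 4. All 4 cKO libraries lay above all 4 controls, and control replicate 3 was the lowest of the 8. The means were 49.0 ± 3.14 and 59.0 ± 2.01 TPM (SD, n = 4 each), 20.4% higher in the cKO, with a log2 fold change of 0.26 (SE 0.059, limma Benjamini-Hochberg adjusted p = 0.0291). Of all genes tested 6.72% passed this test, and 9.24% had all cKO libraries above all controls, as Ackr3 and Flt4 did. The call on Ackr3 rests on most of the libraries. Without control replicate 1 or 2 the limma adjusted p was 0.0578 or 0.0613, and without cKO replicate 1, 2, 3 or 4 it was 0.0699, 0.0516, 0.0908 or 0.0762, with log2 fold changes between 0.25 and 0.29. With no filter on low values it was 0.0583. Measured against the mean of 9 endothelial markers in the same library, the Ackr3 difference was 0.11 (limma adjusted p = 0.236).

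Ackr3 in the exon 2 line was at 58.3, 54.6, 71.0 and 59.1 TPM in the controls and at 54.4, 60.03, 66.1 and 58.1 TPM in the cKO. The groups overlapped over most of their range. The log2 fold change was -0.02 (SE 0.086, 95% interval -0.21 to 0.17, limma adjusted p = 0.999).

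Cxcr4 varied more within the control and within the cKO group of the exon 2-3 line than their means differed. It was at 1.62, 3.34, 1.53 and 3.48 TPM in the exon 2-3 controls and at 1.84, 4.16, 3.95 and 5.04 TPM in the cKO. Control replicates 1 and 3 and cKO replicate 1 were low, and the groups overlapped, with a log2 fold change of 0.44 (SE 0.27, limma adjusted p = 0.380). In the exon 2 line it was at 4.21, 3.89, 5.34 and 4.57 TPM in the controls and at 4.45, 4.73, 5.99 and 3.64 TPM in the cKO, again overlapping. That log2 fold change was 0.04 (95% interval -0.26 to 0.34).

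Flt4 (ENSMUSG00000020357, chr11:49609679-49652739, plus strand, 30 exons) was at 7.70, 8.91, 7.44 and 9.12 TPM in the exon 2-3 controls and at 9.95, 9.40, 10.4 and 10.1 TPM in the cKO. The groups did not overlap, but the log2 fold change of 0.24 (SE 0.083) did not pass the test (limma adjusted p = 0.127). Flt4 in the exon 2 line was at 13.6, 13.2, 14.3 and 13.1 TPM in the controls and at 14.96, 14.7, 15.2 and 12.6 TPM in the cKO. Here 3 cKO libraries lay above every control and cKO replicate 4 lay below them. The log2 fold change was 0.08 (95% interval -0.09 to 0.24).

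Nrp2 (ENSMUSG00000025969, chr1:62703317-62818692, plus strand) was at 4.998, 4.98, 4.08 and 5.72 TPM in the exon 2-3 controls and at 5.62, 6.26, 4.89 and 6.13 TPM in the cKO. The groups overlapped, with a log2 fold change of 0.18 (SE 0.11, limma adjusted p = 0.380). Nrp2 in the exon 2 line lay between 8.48 and 9.53 TPM in the controls and between 7.97 and 10.5 TPM in the cKO. The difference there was -0.04, inside a 95% interval of -0.25 to 0.17.

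Ptprb (ENSMUSG00000020154, chr10:116275502-116389538, plus strand, 32 exons) had the largest difference of the 8 in the exon 2-3 line and, with Cxcr4, the widest scatter. It was at 3.46, 6.02, 3.97 and 7.72 TPM in the controls and at 4.67, 9.16, 8.76 and 11.2 TPM in the cKO. The same 3 libraries as for Cxcr4 were low, and the groups overlapped. The means were 5.29 ± 1.96 and 8.45 ± 2.74 TPM (SD, n = 4 each), with a log2 fold change of 0.59 (SE 0.26, limma adjusted p = 0.239). Ptprb in the exon 2 line was at 11.1, 9.51, 12.5 and 12.1 TPM in the controls and at 10.9, 10.6, 15.2 and 11.3 TPM in the cKO. Replicate 3 of the cKO stood above the other libraries, and the log2 fold change was 0.07 (95% interval -0.20 to 0.34).

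The low libraries of Ptprb and Cxcr4 were shared. After subtraction of the group means, the log2 levels of the pair had a Pearson r of 0.948 over the 16 libraries, 0.976 in the exon 2-3 line and 0.800 in the exon 2 line. The values share libraries, and r is given as a description. Among all genes tested, the gene most like Ptprb by this measure was Col9a1, a cartilage collagen chain (r = 0.951), and the gene most like Cxcr4 was Tgfb2, a TGF-beta ligand of the cardiac cushions (r = 0.954). In the exon 2-3 cKO the SD of the log2 level was 0.48 for both Ptprb and Cxcr4, against a median of 0.10 over all genes tested. Ackr3 (0.05) and Flt4 (0.05) were among the more even genes there. This contrast did not hold in every group. In the exon 2 controls the SD was 0.16 for Ptprb, Cxcr4 and Ackr3, and in the exon 2-3 controls Flt4 (0.13) was at the median of all genes (0.13).

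**Figure D2:**
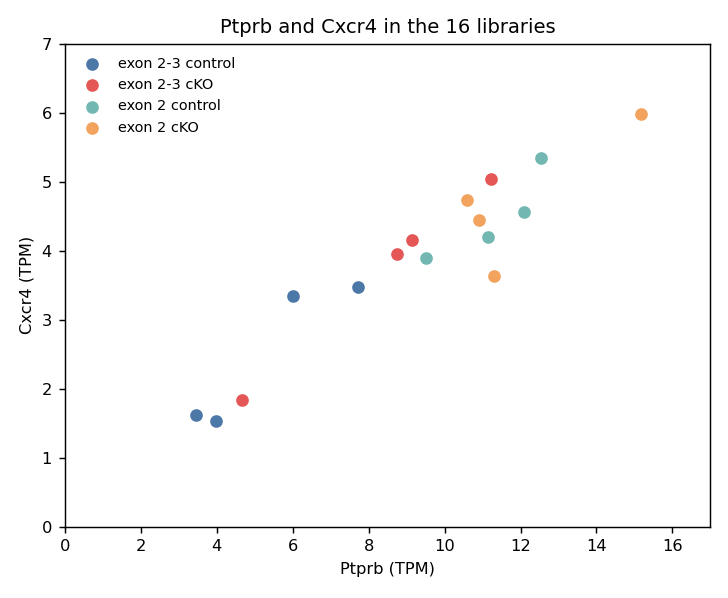
Cxcr4 against Ptprb (both in TPM) in the 16 libraries, coloured by group. The points lie along 1 line, from exon 2-3 control replicates 1 and 3 and cKO replicate 1 at the bottom left to exon 2 cKO replicate 3 (15.2 and 5.99 TPM) at the top right.

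Sox17 (ENSMUSG00000025902, chr1:4490928-4497426, minus strand) was the least abundant of the 8. It was at 0.784, 1.21, 0.938 and 1.34 TPM in the exon 2-3 controls and at 1.45, 1.22, 1.299 and 1.56 TPM in the cKO. The groups overlapped, with a log2 fold change of 0.21 (SE 0.12, limma adjusted p = 0.361). Sox17 in the exon 2 line was at 1.72, 2.39, 2.12 and 1.53 TPM in the controls and at 1.10, 1.49, 1.14 and 1.77 TPM in the cKO. There 3 cKO libraries lay below every control and cKO replicate 4 did not, and the log2 fold change was -0.31 (SE 0.15, limma adjusted p = 0.999). An exon of Gm37587, on the opposite strand, overlaps Sox17, and whether reads were counted by strand was not stated.

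Cd34 (ENSMUSG00000016494, chr1:194938821-194961292, plus strand) was the most abundant of the 8 in every group. It was at 71.0, 69.5, 60.5 and 77.6 TPM in the exon 2-3 controls and at 77.97, 76.2, 85.3 and 82.0 TPM in the cKO. The groups overlapped only through control replicate 4, which lay above cKO replicate 2. The log2 fold change was 0.21 (SE 0.075, limma adjusted p = 0.141). It passed after quantile normalisation (limma adjusted p = 0.0189) and after rescaling without hemoglobin genes (limma adjusted p = 0.0364). Cd34 in the exon 2 line lay between 76.5 and 83.5 TPM in the controls and between 69.1 and 80.9 TPM in the cKO, with a log2 fold change of -0.07 (95% interval -0.21 to 0.07). The antisense gene Gm16897, which shares exon sequence with Cd34, was at 0.528 to 1.40 TPM.

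Icam2 (ENSMUSG00000001029, chr11:106377656-106388139, minus strand, 4 exons) had the smallest difference of the 8 in the exon 2-3 line. It was at 65.8, 56.8, 57.6 and 70.6 TPM in the controls and at 74.6, 59.3, 68.3 and 75.1 TPM in the cKO. The groups overlapped, with a log2 fold change of 0.14 (SE 0.094, limma adjusted p = 0.421). Icam2 in the exon 2 line lay between 44.0 and 48.6 TPM in the controls and between 40.9 and 47.3 TPM in the cKO, with a log2 fold change of -0.07 (95% interval -0.21 to 0.07).

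In all, 1 of the 8 genes passed in the exon 2-3 line, against 6.72% of all genes tested. It was 0 of 8 in the exon 2 line, against 0.0763%. In the exon 2 line 0 of the 8 had all cKO libraries above all controls, against 0.687% of all genes. At an unadjusted limma p under 0.05 there were 3 of 8 in the exon 2-3 line (Ackr3, Flt4 and Cd34), against 21.1% of all genes, and 0 of 8 in the exon 2 line, against 3.21%. The difference between the lines' cKO effects was tested as an interaction over all 16 libraries. It was positive for all 8 genes, from 0.16 for Flt4 to 0.52 for Sox17 and Ptprb, and for 59.7% of all genes. The median was 0.28, against 0.04 over all genes. The interaction uses the same exon 2-3 libraries as that line's own differences, so its sign is not a separate observation. None of the 8 passed, against 2.37% of all genes, with limma adjusted p from 0.167 for Sox17 (SE 0.18) to 0.641 for Cxcr4. At an unadjusted limma p under 0.05 there were 3 of 8 (Sox17, Cd34 and Ackr3), against 14.96% of all genes. A different response of these genes in the 2 lines was thus not shown.

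**Figure D3:**
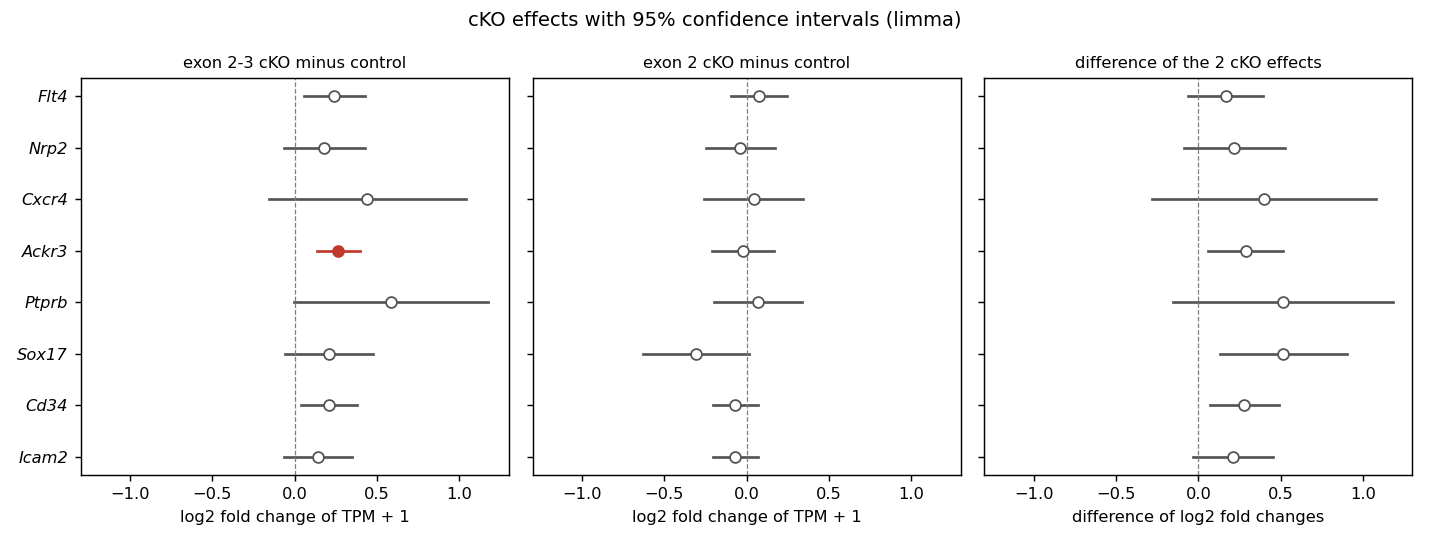
Log2 fold change of TPM + 1 (horizontal axes, with limma 95% confidence intervals) of the 8 genes for cKO minus control in each line and for the difference of the cKO effects. Ackr3 in the exon 2-3 line is the filled point that passed the test; the points of the exon 2 line scatter around 0, from -0.31 to 0.08.

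The control groups differed across the table: 52.6% of all genes tested passed, 32.6% had all exon 2-3 controls below all exon 2 controls and 12.9% had them all above. The median over all genes was -0.14 for exon 2-3 controls minus exon 2 controls, and it was -0.58 over the 8 genes. Ptprb was lowest relative to the exon 2 controls, at -1.01 (SE 0.22, limma adjusted p = 0.00131). The difference was -0.77 for Nrp2, -0.70 for Cxcr4, -0.65 for Flt4, -0.51 for Sox17, -0.30 for Ackr3 and -0.20 for Cd34. The order of the middle 4 depends on the scale: as ratios of mean TPM, exon 2-3 over exon 2, Nrp2 (0.545), Sox17 (0.551) and Cxcr4 (0.554) were close together and Flt4 (0.612) was higher. Icam2 went the other way, at 0.40 (SE 0.082, limma adjusted p = 0.000725). The groups did not overlap for 7 of the 8, the exception being Cd34.

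After each library was centred on its median, 5 of the 8 passed, and 1263 of all 2620 genes. Cd34 (-0.02, limma adjusted p = 0.731), Cxcr4 (-0.52, limma adjusted p = 0.0506) and Ackr3 (-0.12, limma adjusted p = 0.0813) no longer did. Relative to the mean of the endothelial markers 4 of the 8 passed, and 1117 of all genes: Flt4, Nrp2 and Ptprb, lower, and Icam2, higher. On that scale Cd34 (0.11) and Ackr3 (0.0081) changed sign without passing. The call on Cd34 was also lost without exon 2-3 control replicate 3 (-0.14, limma adjusted p = 0.0829), exon 2 control replicate 1 (-0.18, limma adjusted p = 0.0617) or exon 2 control replicate 3 (-0.18, limma adjusted p = 0.0666). That on Cxcr4 was lost without exon 2-3 control replicate 1 (-0.58, limma adjusted p = 0.0583), exon 2-3 control replicate 3 (-0.56, limma adjusted p = 0.0658) or exon 2 control replicate 3 (-0.63, limma adjusted p = 0.0512). Because line and batch cannot be told apart, these differences cannot be assigned to either.

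Other endothelial and endocardial genes were read beside the 8. Of a list of 55, 10 were in the table and 9 were tested, among them Ramp2 (an adrenomedullin receptor subunit), Lama4 (a vascular laminin chain) and Gpr182 (an endothelial chemokine-binding receptor). None passed in either line. In the exon 2-3 line 8 of 9 were positive with a median of 0.20, Ramp2 at 0.20 (SE 0.085, limma adjusted p = 0.222), and in the exon 2 line 4 of 9 were positive with a median of -0.01. The summed level of the 10 was 408 to 525 TPM in the exon 2-3 controls and 498 to 538 TPM in the cKO, and 543 to 591 TPM in the exon 2 controls and 560 to 616 TPM in the cKO. Control replicate 3 of the exon 2-3 line was the lowest of all 16 in this sum, and within that line it was also the lowest library for Ackr3, Cd34, Flt4, Nrp2 and Cxcr4. In the control comparison 5 of the 9 passed as lower in the exon 2-3 line (Prox1, Lama4, Unc5b, Elk3 and Gpr182). Of all 2620 genes tested, 999 did.

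Few partners of these receptors were in the table. Of the VEGF receptor list 1 of 15 genes was tested (Shc2, an adaptor) and of the SoxF and Notch list 1 of 17 (Hey2, a Notch target), and of 7 angiopoietin and Tie genes none was in the table. Neither Shc2 (-0.02) nor Hey2 (-0.02) passed in the exon 2-3 line. Of 22 semaphorin and plexin genes 3 were tested, and Plxnc1, a semaphorin receptor, rose in the exon 2-3 cKO. It was at 11.03, 12.0, 10.7 and 12.7 TPM in the controls and at 15.4, 15.3, 15.3 and 15.3 TPM in the cKO. The groups did not overlap, with a log2 fold change of 0.38 (SE 0.069, limma adjusted p = 0.0138), while in the exon 2 line it was 0.03 (SE 0.085). Its interaction term of 0.34 did not pass (limma adjusted p = 0.110). All 3 genes of this list, Plxnc1, Plxna2 and Sema4c, passed as lower in the exon 2-3 than in the exon 2 controls, as did 999 of all 2620 genes tested.

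Of 25 chemokine, adrenomedullin and arrestin genes 5 were tested (Mif, Ramp1, Ramp2, Ramp3 and Arrb2) and none passed in either line. Arrb2 encodes an arrestin through which Cxcr4 is internalised. Its log2 fold change was 0.13 (SE 0.13) in the exon 2-3 line and -0.03 in the exon 2 line. Ramp3 and Arrb2 were lower in the exon 2-3 than in the exon 2 controls (-0.43 and -0.29, limma adjusted p = 0.0300 and 0.0321). Of 21 sialomucin and ICAM adhesion genes 3 were tested (F11r, Itgb2 and Crk) and none passed in any of the 4 comparisons. Itgb2, a chain of the leukocyte integrins that bind ICAM proteins, averaged 1.34 TPM.

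Markers of other cell types moved to different degrees in the exon 2-3 line. Of the epicardial and mesenchymal markers, a list chosen with earlier results of these data known, 7 of 9 passed as higher in the cKO. Of all 2620 genes tested, 109 did. The median change over the 9 markers was 0.51. Their summed level was 1296 to 1528 TPM in the controls and 1917 to 2041 TPM in the cKO, without overlap. Fn1, the matrix protein fibronectin, had the largest change of the 9 (0.78, SE 0.062). Of the 8 cardiomyocyte markers tested 1 fell (Hand1), and their sum was 17158 to 18646 TPM in the controls and 16646 to 17646 TPM in the cKO. The 4 megakaryocyte and platelet markers tested were all positive, with a median of 0.21, near that of the 8 genes. No megakaryocyte, leukocyte or erythroid marker passed. The sums of these 3 lists, in that order, were 16.4 to 58.0, 100 to 106 and 2998 to 4559 TPM in the controls. In the cKO they were 24.7 to 48.0, 90.0 to 104 and 1515 to 11301 TPM. The mural cell genes Rgs5 and Rgs4, at means of 0.90 and 0.19 TPM, were too low to be tested. In the exon 2 line none of these markers passed. Whether the rise of these mesenchymal markers had a part in the differences of the 8 genes was not tested.

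**Figure D4:**
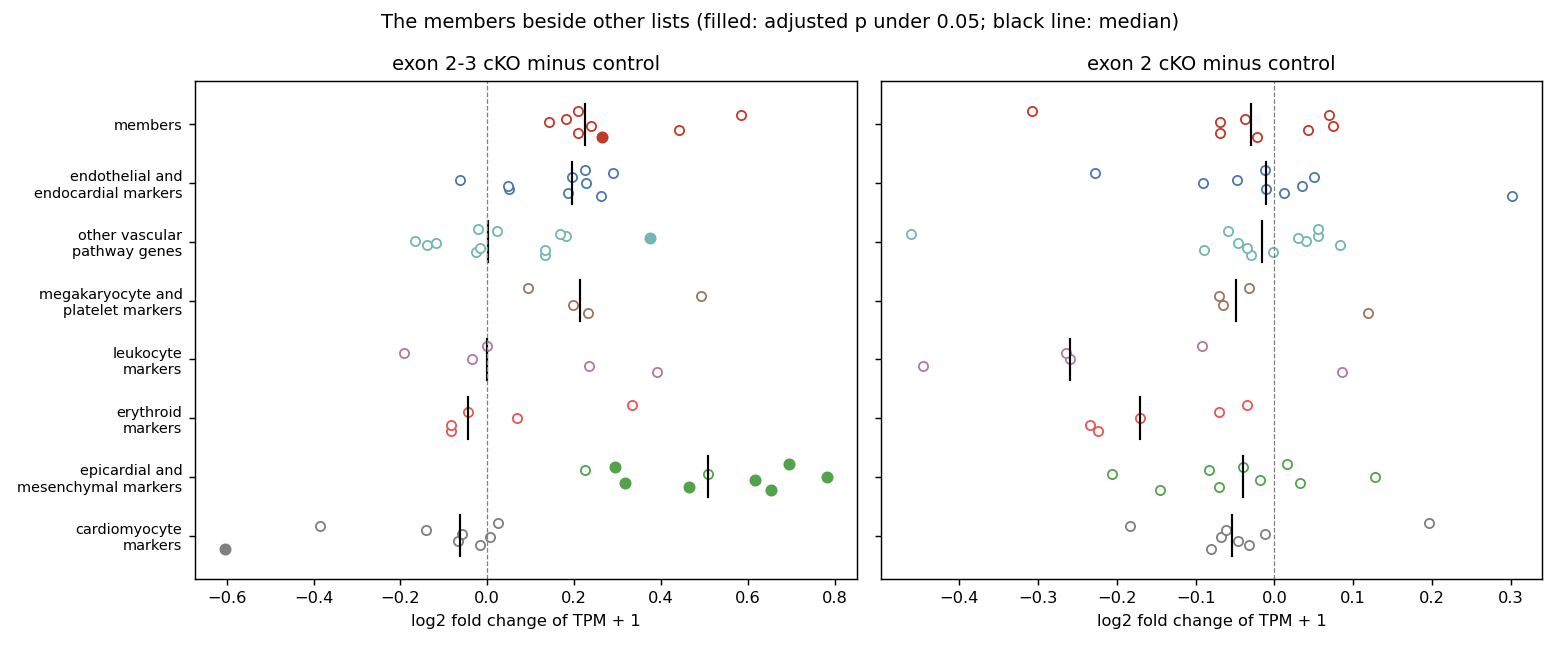
Log2 fold change of TPM + 1 (horizontal axes) of the 8 genes (top row) and of the genes tested in the other lists, in the exon 2-3 line and in the exon 2 line; each point is a gene, filled where its adjusted p is under 0.05, and the line is the list's median. In the exon 2-3 line the 8 genes (median 0.22) lie near both the endothelial markers (0.20) and the megakaryocyte and platelet markers (0.21). They lie below the epicardial and mesenchymal markers (0.51), of which 7 are filled.

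The libraries gave each of the 8 genes its own set of closest genes, by Pearson r of log2 levels over the 16 libraries after subtraction of group means. Each closest gene was picked as the highest among all genes tested, so its r is given as a description only. Cd34 was most like Stk25 (0.920) and Arf2 (0.913), and Ackr3 was most like B230216N24Rik (0.921) and Nav3 (0.903). Flt4 was most like Chpf (0.912) and Mir546 (0.850), Icam2 like Tsr1 (0.918) and Gabarap (0.879), Nrp2 like Slc19a1 (0.902) and Pld2 (0.874), and Sox17 like Slc43a2 (0.800) and Snord96a (0.759). Only Ptprb and Cxcr4 had another of the 8 among their closest 2. The next highest values within the 8 were 0.721 for Cd34 with Ackr3, 0.656 for Cd34 with Icam2 and 0.648 for Flt4 with Cxcr4.

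RefSeq start-site windows were matched for 5 of the 8 genes: Flt4, Nrp2, Cxcr4, Ackr3 and Cd34. Searched on both strands, none of the 5 held an ETS core (CCGGAA, in 14.9% of all windows), a GATA core (AGATAA, in 11.2%), an RBPJ core (TGGGAA, in 25.6%) or the C/EBP and ATF response element (TGATGNAA, in 3.97%). Cd34 alone held a SOX core (ACAAT, in 31.0% of windows), on the reverse strand at -204. An E-box (CANNTG, in 72.3%) was in the windows of Flt4, Nrp2 and Ackr3. These matches describe the letters of the windows.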

How the data were processed

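RNA-seq levels of 16 libraries, in 4 groups of 4, were read from a table of TPM values that the authors deposited. The submitters' processing notes name FastQC, Trim Galore 0.6.7, HISAT2 2.2.1, StringTie 2.2.1, featureCounts, DESeq2 and GRCm38 without saying which made the TPM. The labels' texts differ on library preparation (stranded mRNA or depletion of ribosomal RNA), and the extraction text names cultured cortical neurons where every tissue label names ventricle. The table was held in part: 2219 genes of chromosome 1, 1695 of chromosome 10 and 2007 of chromosome 11 up to position 106501211, which carried 15.2% to 17.1% of each library's TPM. The last line was incomplete and was left out. Atf4 was not analysed here. Depth per library is unknown, since TPM keeps none, so counting error could not be bounded.

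The analysis used log2(TPM + 1). Genes with a mean of at least 1 TPM were tested with limma 3.58.1 (lmFit, eBayes with intensity trend, two-sided) in R 4.3.3, each line on its own 8 libraries; the interaction and the control comparison came from a group means model over 16. Benjamini-Hochberg adjustment ran over 2620 genes. The fit was tested on simulated data whose planted changes were larger than that of Ackr3. Recovery of changes as small as that of Ackr3 was not tested. Python 3.11.15 with pandas 2.3.3 and matplotlib 3.10.9 made tables and figures. Coordinates are those of the table, on GRCm38; exon counts are from GENCODE.

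The rule for named genes allowed the 8 genes and, for each, the 2 genes with the highest r. From each vascular list it allowed up to 4 genes that passed or else the most abundant, and from each cell type list the 3 most abundant. Not all of these were named: Sparc, Col3a1, Myl7 and the leukocyte, erythroid and megakaryocyte genes were left out. Fn1, which had the largest change of the epicardial and mesenchymal list, was the only gene named from it. Ramp1, Mif, Hand1, Itgb2 and the other endothelial genes that passed between controls were named after their values were seen. The 8 genes and all lists were chosen with earlier results of these data known. The alternatives were pseudocount 0.1, no filter, a minimum of 5 TPM, quantile normalisation, median centring, rescaling without hemoglobin genes, 1 fit over all libraries, a replicate block and leaving out each library; levels relative to the endothelial markers were added after seeing the data.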

Additional observations from a re-analysis of the deposited data

Results flagged for a closer look

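The 8 genes in 4 groups gave 32 sets of 4 libraries, and in 2 of them 1 library stood far from the other 3; chance alone marks about 1 set in 20. Ptprb was at 15.2 TPM in exon 2 cKO replicate 3, and the other 3 libraries of that group were at 10.6, 10.9 and 11.3 TPM. Ackr3 was at 44.3 TPM in exon 2-3 control replicate 3, and the other 3 controls were at 50.2, 50.4 and 51.1 TPM. Without that control the Ackr3 log2 fold change of the exon 2-3 line was 0.22 (limma Benjamini-Hochberg adjusted p = 0.0215), against 0.26 with it.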

How the results depend on the processing

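Among the 8 genes the exon 2-3 differences stayed positive in every alternative run but 1: relative to the endothelial markers Icam2 was at -0.017. Sox17 and Cxcr4 fell below the minimum of 5 TPM and gave no value there. The count of the 8 that passed in that line (1) was 2 after quantile normalisation and 2 without hemoglobin genes (Cd34 joined Ackr3), 0 with no filter, 0 relative to the endothelial markers, and 0 to 1 with 1 library left out. Between the controls it was 8, 5 after median centring, 4 relative to the endothelial markers (where Cd34 was at 0.11 and Ackr3 at 0.0081), and 6 to 8 with 1 library left out, while 1377, 1263 and 1117 of all genes passed in the first 3.

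Of all genes, 176 passed in the exon 2-3 line, 95 with no filter, 305 after quantile normalisation, 343 after median centring, 272 without hemoglobin genes and 447 relative to the endothelial markers. The share of these calls that was higher in the cKO was 61.9%, but 50.8% after quantile normalisation, 41.4% after median centring and 12.1% relative to the endothelial markers. Leaving out 1 library gave 70 to 190: 80 without control replicate 1, 95 without control 2, and 95, 93, 70 and 100 without cKO 1, 2, 3 and 4. In the exon 2 line 2 passed, 4 in 1 fit over all libraries, 1 relative to the endothelial markers and 2 to 4 with 1 left out. For the interaction 62 passed, 133 under quantile normalisation, 127 under median centring and 36 to 84 with 1 left out.

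With 1 library left out, differences in the exon 2 line crossed 0 for Ptprb (-0.040 to 0.12), Nrp2 (-0.12 to 0.0047), Cxcr4 (-0.060 to 0.14) and Ackr3 (-0.072 to 0.054). With a replicate block 149 genes passed in the exon 2-3 line, Ptprb (adjusted p = 0.0403) in place of Ackr3 (0.0631) among the 8, 2 in the exon 2 line and 68 for the interaction. Libraries of the same number deviated together only weakly (r from -0.03 to 0.21 and from 0.06 to 0.20), not above 0.1 for every pair in either line, so the numbers were not taken to pair the libraries. With their own number 2 of 8 libraries of the exon 2-3 line and 7 of 8 of the exon 2 line correlated best, a hint from the data and not from the design. The cause of these changes was not tested.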
